A study of Mus musculus with 7 samples.

Results

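The genes described here encode subunits of the nucleosome remodelling and deacetylase (NuRD) complex, together with Chd1, a remodeller of the same CHD family that acts outside NuRD. They are 10 of the 55484 genes in the count table and were taken by symbol: the CHD remodellers Chd1, Chd3 and Chd4, the methyl-CpG-binding domain proteins Mbd2 and Mbd3, the scaffold subunits Mta1, Mta2 and Mta3, and the zinc finger subunits Gatad2a and Gatad2b. RNA-seq libraries of 4 mouse embryonic fibroblast (MEF) and 3 mouse embryonic stem cell (mESC) samples were compared, all of C57/Bl6 background, with no further treatment, time or age in the labels. The paper gives this background in the methods of its ATAC-seq part. MEFs are cultured connective tissue cells of the embryo, whereas mESCs are pluripotent lines derived from the blastocyst. The ATAC-seq part of the study used sorted Thy1+ fibroblasts and Thy1-/Ssea1+/Epcam+ stem cells. The RNA data were a set that the laboratory already held. Whether the RNA came from the same sort is not stated, and the extraction text in the labels describes blood stem cells of individual mice. The study's figure captions call the RNA libraries biological replicates, but with fewer MEF replicates than the table has MEF columns, and which column is the additional one is not stated. Whether the libraries came from separate cultures or animals is not said in the labels or the methods, so p-values measure the spread between these libraries.

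NuRD joins an ATP-driven nucleosome remodeller to a histone deacetylase. Chd3, Chd4 or Chd5 is the motor, Hdac1 and Hdac2 remove acetyl groups, the Mta proteins hold the deacetylases, Rbbp4 and Rbbp7 bind histones, Gatad2a and Gatad2b link the MBD protein to the motor, and Mbd2 and Mbd3 exclude each other, so that separate Mbd2-NuRD and Mbd3-NuRD complexes exist. In mESCs, Mbd3-NuRD is known to restrain pluripotency genes so that cells can leave self-renewal, and Chd1 is known for keeping stem cell chromatin open.

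The MEF libraries held 6528643 to 11441278 counts on genes and the mESC libraries 7462710 to 8193825. Libraries are numbered in the order of the columns of the table, which is not stated to be the order of the samples. No pair of libraries of a cell type agreed within sampling noise (chi-square of 15.6 to 31.1 per degree of freedom). All 8 pluripotency markers tested were higher in mESCs and all 9 fibroblast markers lower, with Epcam among the former and Thy1 among the latter. Fut4, also listed as a pluripotency marker, was too low to test. Of the other cell types, 6 blood markers together held 28.7 to 52.5 CPM (counts relative to the TMM-scaled library size) in MEFs and 56.7 to 64.9 in mESCs, with 2 of the 6 at or under 3 counts in every mESC library. Of these, Laptm5 was higher in mESCs, with means of 3.01 CPM in MEFs and 58.4 CPM in mESCs, while Cd34 (28.5 and 0.363 CPM) and Cd53 (2.74 and 0.192 CPM) were lower. The 4 endothelial markers held 12.5 to 22.3 and 25.4 to 34.3 CPM, with 1 of the 4 at or under 3 counts in every mESC library, and Vwf was the 1 called higher (10.7 and 23.4 CPM). Summed over the Y-linked genes Ddx3y, Eif2s3y and Kdm5d, the level was 82.4 and 85.2 CPM without TMM in MEF libraries 3 and 4, 40.7 in mESC library 3, and 0.547 to 1.99 in the other libraries. The part of these differences in the results was not tested. In bulk RNA, fewer cells of a type and less RNA per cell cannot be told apart.

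All 10 members had at least 30 counts in every library, and all 10 were tested. Chd3, Mbd2, Mbd3 and Mta1 were lower in mESCs, Mta3 was higher, and Chd1, Chd4, Mta2, Gatad2a and Gatad2b did not pass the threshold (BH-adjusted p under 0.05 over 16580 genes, where BH stands for Benjamini-Hochberg and edgeR QL, below, for the quasi-likelihood F test of edgeR; SE is the standard error). The 5 called members compare with 47.9% of all genes tested that were called in either direction; the 4 that fell compare with 25.0% called lower and the 1 that rose with 22.8% called higher. The median log2 fold change of the members was -0.31 (mESC minus MEF), against 0.04 over all genes tested. For 6 members, MEF and mESC libraries did not overlap in level, where 52.1% of all genes tested did not overlap. The same 10 genes spanned log2 fold changes from -4.18 to 1.11, so the members did not move as a block, and within the Chd3/Chd4 and the Mta group one paralog changed while another did not pass the test.

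TMM scaling lowered the mESC minus MEF difference by 0.28 on the log2 scale relative to library size alone. With library size alone, 31.2% of genes were called higher and 20.2% lower, and 3 members were higher (Chd1, Gatad2a and Mta3), while the number lower stayed 4. Against a fold change of 1.5, a test that called 34.4% of all genes, 5 members passed.

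**Figure D1:**
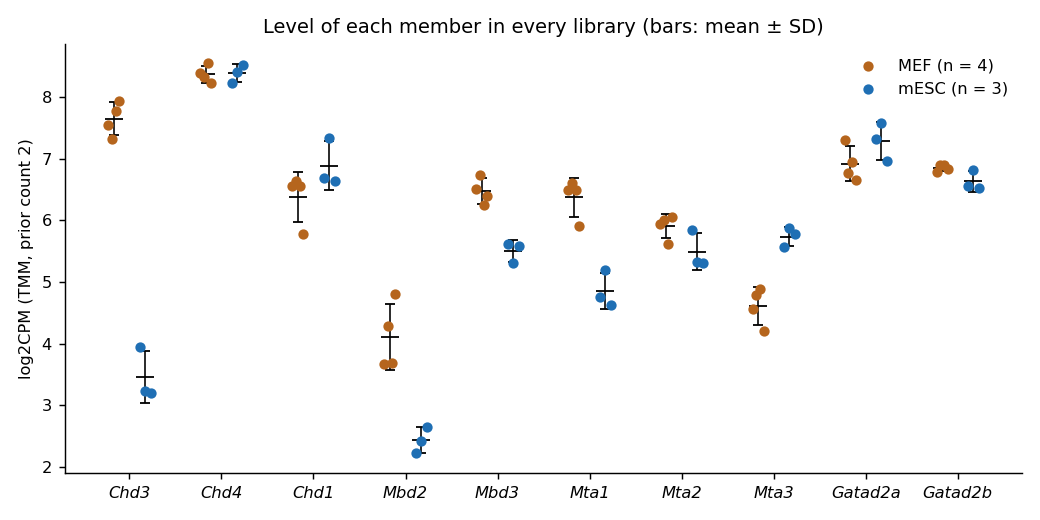
Level of each member in every library on the log2CPM scale (TMM scaling, prior count of 2). Each point is a library, brown for MEFs (n = 4) and blue for mESCs (n = 3), and the bars give the mean ± SD; Chd3 shows the widest gap, from a mean of 7.64 in MEFs to 3.46 in mESCs, and Chd4 lies at 8.36 and 8.38.

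The motor subunits Chd3 and Chd4 behaved differently. Chd3 (ENSMUSG00000018474.17, chromosome 11 of GRCm38, 69343273 to 69369406, minus strand) held 187.6, 160.1, 218.0 and 243.6 CPM in MEF libraries 1 to 4 and 15.2, 9.20 and 8.97 CPM in mESC libraries 1 to 3. The lowest MEF library was thus far above the highest mESC library. Its log2 fold change was -4.18 (SE 0.259, BH-adjusted p = 5.13e-07, edgeR QL), an 18.2-fold lower level in mESCs, and 3.77% of all genes tested had a more negative value. Chd3 was still detected in mESCs, with 140, 81 and 76 counts. Its mESC mean was 5.49% of the MEF mean; among the fibroblast markers this share ran from 0.452% for Col1a2 over 2.02% for Thy1 to 8.05% for Twist1, and Pdgfra, at 5.35%, was nearest to Chd3. Whether fibroblast RNA in the mESC libraries contributed to these counts was not tested.

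Chd4 (ENSMUSG00000063870.12, chromosome 6, 125095981 to 125130591, plus strand), the best-studied NuRD motor, held 332.2, 320.0, 371.1 and 297.4 CPM in MEFs and 300.2, 339.5 and 363.3 CPM in mESCs. MEF and mESC libraries interleaved. The log2 fold change was 0.02 with a 95% interval of -0.27 to 0.31 (BH-adjusted p = 0.924, edgeR QL), and it turned to small negative values under 2 filters on low counts and without MEF library 2 or 4 or mESC library 3. Within each library, Chd3 made up 36.1%, 33.3%, 37.0% and 45.0% of the summed Chd3 and Chd4 counts in MEFs, and 4.81%, 2.64% and 2.41% in mESCs. Its mean share was 37.9 ± 5.02% (SD, n = 4) against 3.29 ± 1.33% (SD, n = 3). A share within a library does not depend on how libraries are scaled. These shares count transcript ends, since the libraries were made from the 3-prime end with molecular identifiers, so gene length does not enter them in the usual way, and only their change between cell types is read here. The summed level of both genes was 533 ± 45.4 CPM in MEFs (SD, n = 4) and 345 ± 28.6 CPM in mESCs (SD, n = 3), 64.9% of the MEF level, without overlap.

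Chd1 (ENSMUSG00000023852.14, chromosome 17, 15704967 to 15772610, plus strand), which slides nucleosomes at transcribed genes, held 93.8, 99.1, 93.8 and 54.9 CPM in MEFs and 102.5, 161.9 and 99.1 CPM in mESCs. MEF library 4 lay below the other MEF libraries and mESC library 2 above the other mESC libraries. The highest MEF and the lowest mESC library were almost level, so that Chd1, counted above among the members without overlap, was so by the narrowest margin. The log2 fold change of 0.50 (95% interval -0.03 to 1.04, SE 0.242) missed the threshold (BH-adjusted p = 0.111, edgeR QL). With library size alone it was 0.79 (adjusted p = 0.0128), and it ranged from 0.24 to 0.62 when each library was left out in turn.

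The MBD subunits were both lower in mESCs. Mbd2 (ENSMUSG00000024513.16, chromosome 18, 70568189 to 70626131, plus strand), which binds methylated CpG sites, held 12.5, 19.2, 12.7 and 27.7 CPM in MEFs against 4.44, 5.11 and 6.02 CPM in mESCs. Every mESC library was below every MEF library, while the MEF libraries themselves spread widely. Its log2 fold change was -1.79 (SE 0.349, BH-adjusted p = 0.00161, edgeR QL), a 3.45-fold lower level. The mESC libraries held 41, 45 and 51 counts of Mbd2, so its level there is among the least precise of the members.

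Mbd3 (ENSMUSG00000035478.14, chromosome 10, 80392539 to 80399550, minus strand), whose domain has lost most of its preference for methylated DNA, held 90.7, 106.6, 75.9 and 84.5 CPM in MEFs and 48.8, 39.2 and 47.7 CPM in mESCs. The groups did not overlap, and the mESC mean was 50.6% of the MEF mean. The log2 fold change was -0.98 (SE 0.173, BH-adjusted p = 8.38e-04, edgeR QL). With both genes lower, the summed Mbd2 and Mbd3 level went from 107 ± 15.6 CPM (SD, n = 4 MEF) to 50.4 ± 5.28 CPM (SD, n = 3 mESC). Mbd2 made up 12.1%, 15.3%, 14.3% and 24.7% of these counts in MEF libraries and 8.35%, 11.5% and 11.2% in mESC libraries. The share was lower in every mESC library, but MEF library 1 and mESC library 2 differed by less than the SD of either cell type (5.55 and 1.75 percentage points).

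Of the Mta scaffold genes, Mta1 was lower in mESCs and Mta3 higher, while Mta2 was not called. Mta1 (ENSMUSG00000021144.14, chromosome 12, 113098278 to 113137206, plus strand) held 89.4, 97.7, 89.4 and 59.95 CPM in MEFs and 26.9, 36.4 and 24.5 CPM in mESCs, with a log2 fold change of -1.52 (SE 0.220, BH-adjusted p = 2.21e-04, edgeR QL). MEF library 4 was again the lowest of its group and still above every mESC library. Mta3 (ENSMUSG00000055817.18, chromosome 17, 83706163 to 83821516, plus strand) held 23.3, 27.4, 29.5 and 18.1 CPM in MEFs and 47.0, 58.4 and 54.4 CPM in mESCs. Its log2 fold change was 1.11 (SE 0.201, BH-adjusted p = 9.88e-04, edgeR QL), a 2.16-fold higher level without overlap. Mta2 (ENSMUSG00000071646.9, chromosome 19, 8941875 to 8952303, plus strand) held 61.2, 64.0, 48.8 and 66.0 CPM in MEFs and 57.2, 40.1 and 39.3 CPM in mESCs. mESC library 1 fell within the MEF range and the other mESC libraries below it. The log2 fold change of Mta2 was -0.40 (95% interval -0.82 to 0.03, BH-adjusted p = 0.115, edgeR QL); without mESC library 1 it was -0.60 with an adjusted p of 0.0386.

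Within the summed Mta counts, Mta1 held 41.6% to 53.3% in MEF libraries and 20.5% to 27.0% in mESC libraries. Mta3 held 12.6% to 17.6% in MEF libraries and 35.9%, 43.3% and 46.0% in mESC libraries. Mta2 held 36.0 ± 7.05% in MEFs (SD, n = 4) and 35.5 ± 7.23% in mESCs (SD, n = 3), a difference within the spread. The change was thus in Mta1 and Mta3, with mean shares of 49.5% and 14.5% in MEFs and 22.7% and 41.7% in mESCs. The summed Mta level was 169 ± 18.7 CPM in MEFs (SD, n = 4) and 128 ± 8.74 CPM in mESCs (SD, n = 3).

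**Figure D2:**
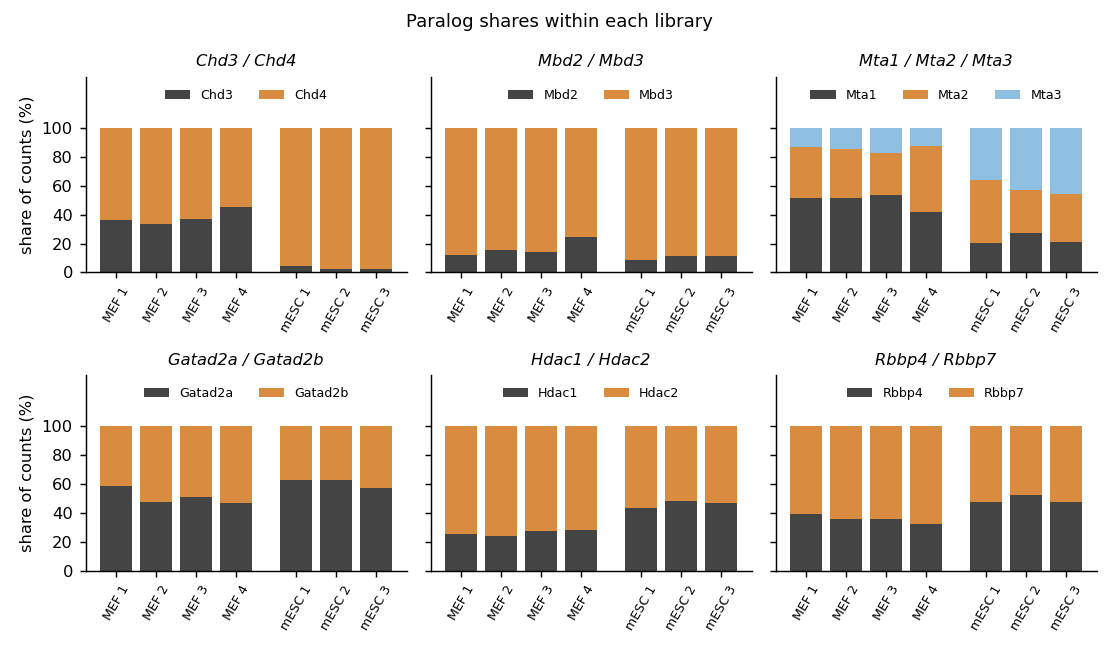
Share of each paralog in the summed counts of its group, in percent, in every library. Each bar is a library and sums to 100%; the Chd3 share drops from a mean of 37.9% in MEFs to 3.29% in mESCs, the Mta3 share rises from 14.5% to 41.7%, and the Hdac1 share from 26.2% to 46.0%.

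Promoter sequences are shown for the Mta1 and Mta2 pair, of which one was lower in mESCs and the other did not pass the test, and for Mbd3, which was lower together with Mta1. RefSeq promoter entries on GRCm38.p6 were matched for 6 of the 10 members. The stretch from 250 to 51 bases before the RefSeq start of each entry, which for Mta2 and Mbd3 is not the GENCODE gene start given above, is printed 5′ to 3′ on the strand of the gene, with each CpG in capitals. The windows are chr12:113098028-113098227 on the plus strand for Mta1, chr19:8941670-8941869 on the plus strand for Mta2 and chr10:80399582-80399781 on the minus strand for Mbd3.
Mta1: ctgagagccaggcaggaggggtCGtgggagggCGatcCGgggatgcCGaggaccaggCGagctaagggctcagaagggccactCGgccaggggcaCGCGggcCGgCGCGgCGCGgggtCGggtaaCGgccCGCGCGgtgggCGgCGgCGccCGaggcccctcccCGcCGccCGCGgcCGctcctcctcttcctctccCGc
Mta2: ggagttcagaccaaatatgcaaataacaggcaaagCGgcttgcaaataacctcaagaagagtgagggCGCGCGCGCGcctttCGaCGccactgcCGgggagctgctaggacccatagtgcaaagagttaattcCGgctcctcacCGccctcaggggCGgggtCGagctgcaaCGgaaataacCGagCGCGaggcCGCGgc
Mbd3: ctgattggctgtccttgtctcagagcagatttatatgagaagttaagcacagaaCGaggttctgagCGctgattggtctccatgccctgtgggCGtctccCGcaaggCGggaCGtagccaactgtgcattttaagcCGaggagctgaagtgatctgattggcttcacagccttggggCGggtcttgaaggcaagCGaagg
The Mta1 window held 28 CpG sites, more than 97.0% of the 32851 promoter windows of the same length. The Mta2 window held 19 and the Mbd3 window 9, more than 89.1% and 67.9% of windows, where the median window held 4. Both strands were searched for GGGCGG, the GC box bound by SP and KLF factors, and for CCAAT. The GC box occurred 2 times in Mta1, 2 times in Mta2 and 1 time in Mbd3, and in 24.6% of all windows. CCAAT occurred 3 times in Mbd3 and not in the other windows, against 28.4% of all windows. These matches describe the letters in the windows and are not binding sites.

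Gatad2a and Gatad2b, which bridge the MBD protein and the motor, did not pass the threshold. Gatad2a (ENSMUSG00000036180.15, chromosome 8, 69907076 to 69996384, minus strand) held 157.7, 108.5, 123.0 and 100.7 CPM in MEFs and 158.3, 189.2 and 123.9 CPM in mESCs. MEF library 1 lay within the mESC range. Its log2 fold change was 0.36 (95% interval -0.08 to 0.80, BH-adjusted p = 0.164, edgeR QL), and 0.64 with an adjusted p of 0.0158 with library size alone. Gatad2b (ENSMUSG00000042390.9, chromosome 3, 90293178 to 90363407, plus strand) was the most even member among MEFs, with 110.8, 118.8, 119.0 and 113.4 CPM, and held 93.4, 113.1 and 91.7 CPM in mESCs. Its log2 fold change was -0.22 (95% interval -0.53 to 0.10) and turned to 0.06 with library size alone. The Gatad2a share of the summed counts was 51.1 ± 5.36% in MEFs (SD, n = 4) and 61.0 ± 3.05% in mESCs (SD, n = 3), with overlap between MEF library 1 and mESC library 3. The summed level overlapped too, with 238 ± 23.3 and 257 ± 43.5 CPM.

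**Figure D3:**
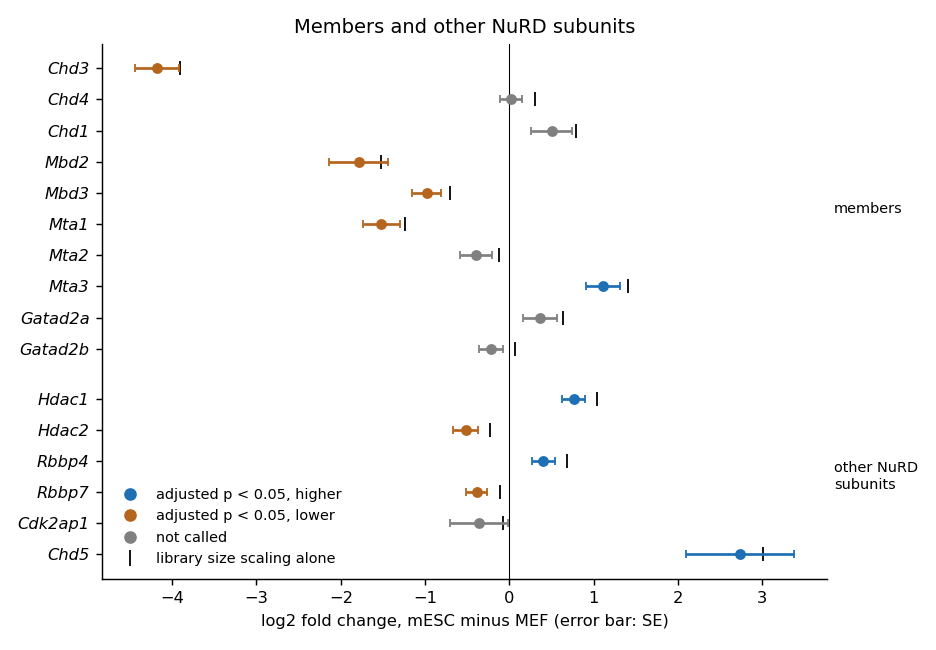
log2 fold change (mESC minus MEF) of the 10 members and 6 other NuRD subunits, with the standard error as the bar. Colours mark genes past an adjusted p of 0.05 in edgeR's quasi-likelihood test, and black ticks give the value with library size alone; Chd3 at -4.18 and Chd5 at 2.73 are the ends of the range.

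The other NuRD subunits were read from a list of 6 genes. For comparison, 22.8% of all genes tested were called higher and 25.0% lower. Of the 6, Hdac1, Rbbp4 and Chd5 were higher in mESCs, Hdac2 and Rbbp7 were lower, and Cdk2ap1, a small subunit, was not called. Their median log2 fold change was 0.02. With library size alone 3 were higher and 0 lower, so that the calls for Hdac2 and Rbbp7 rest on the scaling. Against a fold change of 1.5, Chd5 passed and Hdac1, Hdac2, Rbbp4, Rbbp7 and Cdk2ap1 did not. Hdac1 held 81.5 to 94.7 CPM in MEFs and 132.9 to 153.5 CPM in mESCs, with a log2 fold change of 0.76 (SE 0.138). Hdac2 held 212.9 to 294.5 CPM in MEFs and 163.8 to 176.0 CPM in mESCs, with a log2 fold change of -0.52 (BH-adjusted p = 0.0137, edgeR QL), and of -0.23 with library size alone. The Hdac1 share of both deacetylases was 26.2 ± 1.80% in MEFs (SD, n = 4) and 46.0 ± 2.30% in mESCs (SD, n = 3), without overlap, while their summed level was 331 ± 40.5 and 317 ± 12.0 CPM. The sum thus stayed within the spread between MEF libraries while its make-up differed. Rbbp4 had a log2 fold change of 0.40 and Rbbp7, which is X-linked, of -0.39. The Rbbp4 share was 35.8 ± 2.89% in MEFs (SD, n = 4) and 49.4 ± 2.89% in mESCs (SD, n = 3), and the sums of 745 ± 41.6 and 717 ± 60.7 CPM overlapped. The Rbbp4 call was lost in 6 of 7 fits that left out a library and kept without MEF library 1. It was also lost without a filter beyond 1 count. The Rbbp7 call was lost without mESC library 2 or 3. Chd5, the neural member of the motor group, was low throughout, with 17, 4, 2 and 2 counts in MEFs and 40, 31 and 59 in mESCs, and a log2 fold change of 2.73 (SE 0.641, BH-adjusted p = 0.00497, edgeR QL). Without MEF library 1, which held most of the MEF counts, the log2 fold change of Chd5 was 3.63.

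Some of these counts are uncertain because of shared sequence. Of the 50-base sequences of Hdac1, 31.7% also occur in Gm10093, which held 18 to 98 counts a library, and 55.7% of those of Cdk2ap1 occur in Gm12184, which held 232 to 809. For Rbbp4 and Rbbp7, 17.2% and 11.2% of the 50-base sequences occur in other annotated genes. The members are nearly free of this: the largest share was 2.04%, for Gatad2b, which the antisense gene 4930537H20Rik, with 2 to 12 counts, overlaps.

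Among 5 further CHD remodellers, Chd2, Chd6, Chd7 and Chd8 were higher in mESCs, Chd9 was not called, and 0 were lower. Their median log2 fold change was 0.55, or 0.83 with library size alone. Calls over all genes tested were 22.8% higher and 25.0% lower. Against a fold change of 1.5, Chd7 passed and Chd2, Chd6 and Chd8 did not. Chd7, which acts at enhancers, held 50, 54, 61 and 13 counts in MEFs and 481, 497 and 479 in mESCs, with a log2 fold change of 3.29 (SE 0.354, BH-adjusted p = 2.67e-05, edgeR QL). MEF library 4 was the lowest. Chd2, the closest relative of Chd1, had a log2 fold change of 0.80 and an SE of 0.148; 17.3% of its 50-base sequences lie in 1810026B05Rik, which overlaps it on the same strand. The log2 fold changes of Chd6 (0.55), Chd8 (0.44) and Chd9 (0.32) were smaller. The Chd6 call was lost without MEF library 1 or 2 or mESC library 1 or 3, with BH-adjusted p-values up to 0.189 (edgeR QL). The Chd8 call was lost without MEF library 2, 3 or 4 or mESC library 1 or 2, with an adjusted p of up to 0.129 in the same test. Summed over these 5 genes, MEF libraries held 204 to 264 CPM and mESC libraries 398 to 424.

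Of 4 other MBD genes, Mbd4 was higher, Mbd5 was lower, and Mbd1 and Mbd6 were not called, with a median log2 fold change of -0.05, or 0.24 with library size alone. These calls stand beside the same shares of all genes tested, 22.8% higher and 25.0% lower. Against a fold change of 1.5, Mbd4 passed and Mbd5 did not. Mbd4, a DNA glycosylase that repairs mismatches at CpG sites, rose by 1.85 on the log2 scale, between means of 3.92 ± 1.53 CPM (SD, n = 4 MEF) and 14.2 ± 1.79 CPM (SD, n = 3 mESC). Mbd5 had a log2 fold change of -1.01 (BH-adjusted p = 0.0213, edgeR QL), which was -0.73 and not called with library size alone (adjusted p = 0.0791) and -0.85 and not called without mESC library 1 (adjusted p = 0.0749). Mbd1 (0.08) and Mbd6 (-0.17) were near 0, and both changed sign under other settings.

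Proteins known to bind NuRD, many of them transcription factors, gave the largest differences in these lists. Of 14, 12 were tested, with 7 higher and 4 lower in mESCs, 1 not called, and a median log2 fold change of 0.70. Zfp219 and Ikzf1 were too low to test. Over all genes tested, 22.8% were called higher and 25.0% lower, and this list was chosen with earlier results of these data known. Sall4, a stem cell zinc finger factor that binds NuRD through its N-terminal motif, held 18, 16, 19 and 17 counts in MEFs and 3578, 4651 and 2577 in mESCs, with a log2 fold change of 7.49 (SE 0.258, BH-adjusted p = 1.64e-08, edgeR QL). Its relative Sall1 held 2, 1, 4 and 0 counts in MEFs and 272, 341 and 220 in mESCs. Zfp296 held 3, 1, 7 and 5 counts in MEFs and 182, 174 and 131 in mESCs; 10.8% of its 50-base sequences lie in the overlapping gene Gemin7, on the opposite strand. Kdm1a, the H3K4 demethylase, rose by 0.87 on the log2 scale, between means of 53.1 ± 8.82 CPM (SD, n = 4 MEF) and 97.3 ± 17.5 CPM (SD, n = 3 mESC). Pwwp2a had a log2 fold change of 1.63 and its paralog Pwwp2b of -1.55. Zmynd8 (0.53) and Bend3 (0.96) were higher too. The Bend3 call was lost without MEF library 1, 3 or 4 or mESC library 1 or 3, with BH-adjusted p-values up to 0.146 (edgeR QL). MEF and mESC libraries of Bend3 overlapped in level. Against a fold change of 1.5, Kdm1a, Zmynd8 and Bend3 did not pass, and the other listed genes called in either direction did.

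The NuRD-binding factors that fell were Bcl11a, Bcl11b, Zfpm2 and Pwwp2b. Bcl11a held 138 to 230 counts in MEFs and 26, 10 and 29 in mESCs, with a log2 fold change of -3.15. Bcl11b had a log2 fold change of -3.08 (SE 0.302). Zfpm2, a GATA cofactor of mesenchyme and heart, held 90, 55, 108 and 35 counts in MEFs and 0, 1 and 1 in mESCs, at or under 3 counts in every mESC library. Zfpm1, with a log2 fold change of -0.75 and an SE of 0.652, was not called. The sum of the 14 genes was 323 to 383 CPM in MEFs and 753 to 1010 CPM in mESCs, of which Sall4 alone gave a mean of 407 CPM in mESCs.

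**Figure D4:**
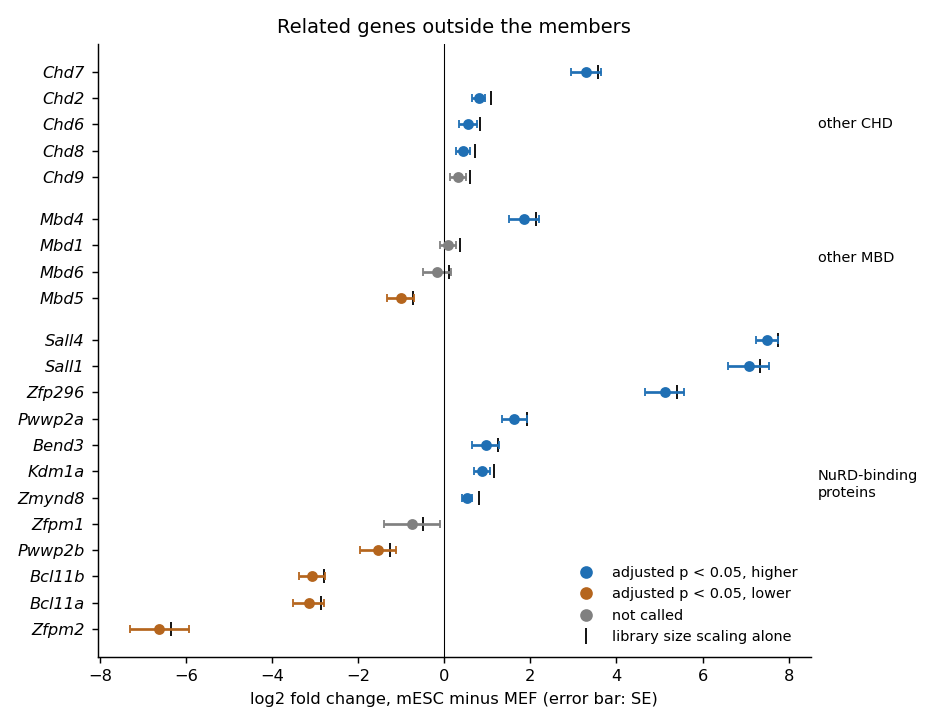
log2 fold change (mESC minus MEF) of tested genes outside the members: 5 other CHD genes, 4 other MBD genes and 12 genes of NuRD-binding proteins, with the standard error as the bar and colours as for the NuRD subunits. Black ticks give the value with library size alone; Sall4 lies at 7.49 and Zfpm2 at -6.62, the latter fitted against at most 1 count a library in mESCs.

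Chd3 had a more negative log2 fold change than all but 625 of the 16580 genes tested, Mbd2 than all but 2181, Mta1 than all but 2580 and Mbd3 than all but 3750. Mta3 had a higher value than 81.6% of genes. Lower values than that of Mta2 were found in 35.2% of genes, than that of Gatad2b in 40.9%, than that of Chd4 in 49.3% and than that of Gatad2a in 62.5%, which places these members in the middle of the distribution. Chd1 stood above 67.4% of genes.

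**Figure D5:**
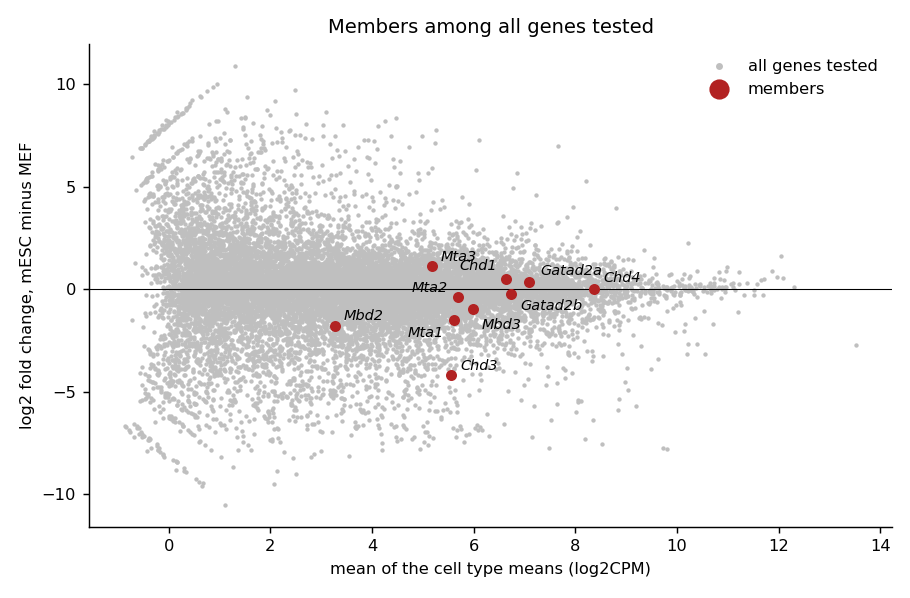
Each grey point is one of the 16580 genes tested, with the mean of the cell type means on the x axis (log2CPM) and the log2 fold change (mESC minus MEF) on the y axis; the red points are the members. Chd3, at -4.18, lies below the dense band of genes at its level, and Chd4, at 0.02, lies within it.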

How the data were processed

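The members were taken by symbol from the deposited table of RNA-seq gene counts of 4 MEF and 3 mESC libraries. The members and gene lists were chosen with earlier results of these data known. The authors made 3-prime libraries with molecular identifiers, aligned reads to mm10 with STAR (2.4.2a in the submitters' processing notes, another version in the paper), collapsed identifiers with Je, assigned unique alignments to exons with featureCounts, and deposited whole-number counts without normalization. The annotation release and strand setting are not given in the sources used here. Each value has counting error, and totals of 6528643 to 11441278 counts make 3 counts, taken as the floor, worth 0.262 to 0.460 CPM. Symbols in the form of dates (26 rows, 0.25% of counts) stayed in the totals and are not named.

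The groups were compared with edgeR 4.0.16 (R 4.3.3) on all 7 libraries with TMM scaling, the filterByExpr filter, no covariates and the quasi-likelihood F test, adjusted by Benjamini-Hochberg over all genes tested. Standard errors follow from the F statistic, and 95% intervals use the t distribution of that fit. Shares of paralogs are of raw counts within a library and were not tested. Alternatives were DESeq2 1.42.0, limma-voom (limma 3.58.1), other scalings and filters, a test against a fold change of 1.5, and each library left out. Levels were also averaged with a prior count of 0.5, without TMM and as log2(CPM + 1), and shares from pooled counts. The fits were tested on simulated data in which 200 of 16013 genes were changed by a log2 fold change of 2 or -2. There edgeR recovered 141 with 9 false calls, DESeq2 160 with 40 and limma-voom 126 with 8. The simulation changed a far smaller part of the genes than was called in these data. The genes named are the members, all genes of the subunit, CHD, MBD and NuRD-binding lists (1 listed gene is not reported here), up to 4 genes of a marker list, and genes that overlap or share sequence with them; the 3 Y-linked genes were named outside this rule, after their values were seen. GENCODE M21 (GRCm38) gave the coordinates; overlap in sequence between genes was measured by comparing all stretches of 50 bases in their transcripts, read in either direction.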

Additional observations from a re-analysis of the deposited data

Results flagged for a closer look

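Chd1 stood apart in MEF library 4, with 5.78 log2CPM against 6.56 to 6.63 in the other MEF libraries. The gap to the nearest library was 0.908 of the range of the 4 libraries, over the critical value at Dixon's 95% level. Of 39 genes of the lists examined in this way, 1 was singled out, where chance gives about 1.95. Without this library the log2 fold change of Chd1 was 0.33 in place of 0.50, and neither passed the threshold (BH-adjusted p = 0.222 and 0.111, edgeR QL).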

How the results depend on the processing

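No paired analysis was possible because no source ties a column's number to a sample's. The calls for Chd3, Mbd2, Mbd3, Mta1 and Mta3 kept their direction and their side of the threshold under all 14 alternatives. Their log2 fold changes were -4.48 to -3.91, -1.94 to -1.51, -1.06 to -0.70, -1.71 to -1.24 and 0.99 to 1.40. Adjusted p-values were at most 0.0183 in each fit, the value of Mbd3 in edgeR's test against a fold change of 1.5. The other fits used edgeR's quasi-likelihood test, DESeq2's Wald test or limma-voom. With library size alone, 3 members were called higher in place of 1. Chd4 had a log2 fold change of 0.02, of -0.02 without a filter beyond 1 count, of -0.01 with at least 10 counts in every library of a cell type, and of -0.05 to 0.09 when each library was left out. Gatad2b turned from -0.22 to 0.06 and Mbd6 from -0.17 to 0.12 with library size alone, by construction of the scaling, and Mbd6 ranged from -0.39 to 0.08 and Mbd1 from -0.05 to 0.20 when each library was left out; none of these was called. Of 378 values for genes of the other lists under an alternative, 39 lost their call and 1 gained one. No paralog share moved by more than 1 SD in 72 alternatives. Leaving out 1 library cannot shift a mean share that far, so those alternatives could not have shown a move. The pooled counts only reweight the same shares. Of 60 mean levels, 3 moved by more than the SD, all with library size alone. The depth limits, among others, Mbd2, Mbd5, Bcl11a, Pwwp2b and Zfpm2, which had few counts in mESC libraries. It also limits Chd5, Chd7, Mbd4, Sall1, Sall4 and Zfp296, which had few counts in MEF libraries. Cdk2ap1 and Zfpm1 had few counts in both cell types.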
